A study of Mus musculus with 3 samples.

Results

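The epithelium of the thymic cortex was compared, gene by gene, with the epithelium of the skin. Genes were taken into the comparison when they reached 1 RPKM or more (reads per kilobase of gene model, scaled to the library's mapped reads) in either library. This kept 13543 of the 22609 gene symbols. The size of a difference is the log2 ratio of RPKM + 1 in cTEC over RPKM + 1 in skinEC, so a positive value means higher in cTEC. The added 1 understates the difference of low genes. A gene was counted as apart from a log2 ratio of 2 in either direction, which is 4-fold on this scale.

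RNA was sequenced from 3 epithelial populations of C57BL/6 mice, with 1 library each, and 2 of the 3 are compared here. Cortical thymic epithelial cells (cTEC) were sorted from thymi of 14 animals, pooled at an age of 7 days, as cells without the leukocyte antigen CD45 that carry the epithelial antigen EpCAM and Ly51 and do not bind the lectin UEA1. Skin epithelial cells (skinEC) were keratinocytes from 7 pooled newborn mice, harvested from the epidermis of trunk and dorsum and sorted as EpCAM-positive and CD11c-negative. CD45 was not part of the skin sort. The third library held medullary thymic epithelial cells (mTEC; UEA1-positive and Ly51-negative) from the same thymi, and its levels are set beside the others only for orientation. No treatment or altered allele is given for any group. Organ, age, body site and sort all differ between cTEC and skinEC, so their parts in a difference cannot be told apart. Each side is 1 pool of animals, so no difference has a replicate check and no p-value is given. In pooled cells, a change in the share of cells with a transcript and a change in its amount per cell cannot be told apart either.

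Cortical epithelium receives blood-borne progenitors, drives them into the T-cell lineage through the Notch ligand DLL4 and interleukin 7, and then presents self-peptides on MHC molecules for positive selection. The transcription factor FOXN1 is required for this epithelium to form and also acts in skin, in the hair follicle and in differentiating keratinocytes. Keratinocytes divide in a basal layer rich in keratins 5 and 14, are anchored by hemidesmosomes, and cornify as they move outward, switching to keratins 1 and 10. Both tissues are epithelia that use the p53 relative p63.

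The mapped reads behind the values were recovered from the steps of the RPKM values as 56598578 for cTEC and 55865024 for skinEC. With these, 99.9% of the values above 0 were whole reads over a whole length in either library, within a relative tolerance of 2e-11. That share cannot tell these depths from simple multiples of them. Receptor genes of known coding length were used to choose among these multiples. At the depths chosen, 66.7% of 42 in cTEC and 45.5% of 11 in skinEC held whole reads, which is therefore no separate check. On a gene of 1 kb, 3 reads correspond to 0.0530 RPKM in cTEC and 0.0537 RPKM in skinEC. The depths were thus almost equal, and a gene at 1 RPKM in either library rests on more than 3 reads unless its model is very short. Summed RPKM was 462762 in cTEC and 595006 in skinEC. In what follows, pairs of levels are in RPKM with cTEC first.

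Epcam and Enpep lay where the sorts place them, and the other sorting genes were less clear. Epcam was at 223 and 142 RPKM, and Enpep, which encodes Ly51, was at 45.0 and 0.0553 RPKM. Itgax, which encodes CD11c, was below 1 RPKM in both, at 0.180 and 0.249 RPKM. The fucosyltransferase genes Fut1 and Fut2 of the sorting list were at 10.9 and 5.72 RPKM and at 0.728 and 1.89 RPKM. Psmb11, the catalytic subunit of the thymoproteasome found in cortical epithelium, was at 261 and 0.0632 RPKM, and Krt5 and Krt14, the basal keratinocyte keratins, were at 15010 and 10673 RPKM in skinEC. Markers of other cells were present at unequal levels, and several single genes of these lists were abundant. Ptprc, which encodes CD45, was at 1.07 and 0.0853 RPKM, although of the pair only cTEC was sorted to be without CD45. Of 11 endothelial markers, 8 reached 1 RPKM in cTEC and 0 in skinEC, with the list's summed level at 29.5 and 0.876 RPKM. The 19 T-lineage markers summed to 29.0 RPKM in cTEC, with Rag1 at 1.49 and Cd3e at 1.03 RPKM, both listed at 0 in skinEC. Their sum of 83.1 RPKM in skinEC came mostly from Bcl11b (53.7 RPKM), a transcription factor that keratinocytes also use. The 15 myeloid markers summed to 17.3 and 10.9 RPKM and the erythroid markers to 6.96 and 0.357 RPKM, while none of 7 B-cell markers reached 1 RPKM in either library. In skinEC the Langerhans cell gene Cd207 was at 0.433 RPKM, the melanocyte gene Dct at 2.18 RPKM and the Merkel cell regulator Atoh1 at 1.03 RPKM. Aire, which marks medullary epithelium, was at 1.20 RPKM in cTEC against 1129 RPKM in mTEC. Median log2 ratios of the measured markers were 1.02 for 11 T-lineage genes, 0.44 for 7 myeloid genes, 1.73 for 8 endothelial genes, 0.76 for 5 melanocyte genes, 4.77 for 7 Merkel cell genes (Krt8, Krt18 and Isl1 among them), 0.88 for 4 skeletal muscle genes, 1.17 for 9 tuft cell genes and -0.95 for 10 medullary genes. They were 3.16 for 7 pericyte and smooth muscle genes, with the list summed to 202 RPKM in cTEC and 19.01 RPKM in skinEC, 1.17 for 13 fibroblast genes, summed to 242 and 424 RPKM, and 1.37 for 4 erythroid genes. The 5 Langerhans and skin T-cell genes had a median of 1.02. The skeletal muscle list summed to 161 and 14.7 RPKM, of which Actn3 alone held 145 RPKM in cTEC.

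Promoters of 4 genes with large ratios are shown, 2 from each side of the comparison. They were searched for GACGC, the core through which the cortical regulator FOXN1 binds DNA. Of these genes, 2 belong to its tissue. Sequences are RefSeq's for GRCm38.p6, from 250 bases before to 50 bases after the first listed start of the gene, read on the gene's strand. Other starts of a gene were not searched, so a stretch need not be that of its main start. Capitals mark GACGC or its reverse complement GCGTC. Psmb11 (chr14:54625060-54625359, plus strand) held 2 matches, Pax1 (chr2:147364744-147365043, plus strand) held 1, Krt5 (chr15:101712856-101713155, minus strand) held 1 and Krt14 (chr11:100205981-100206280, minus strand) held 0.
Psmb11: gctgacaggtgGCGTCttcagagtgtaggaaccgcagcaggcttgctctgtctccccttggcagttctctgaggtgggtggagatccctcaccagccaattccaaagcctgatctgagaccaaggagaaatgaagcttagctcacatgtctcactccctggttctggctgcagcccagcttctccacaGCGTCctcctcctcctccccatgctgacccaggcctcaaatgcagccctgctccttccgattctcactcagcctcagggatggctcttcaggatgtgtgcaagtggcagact
Pax1: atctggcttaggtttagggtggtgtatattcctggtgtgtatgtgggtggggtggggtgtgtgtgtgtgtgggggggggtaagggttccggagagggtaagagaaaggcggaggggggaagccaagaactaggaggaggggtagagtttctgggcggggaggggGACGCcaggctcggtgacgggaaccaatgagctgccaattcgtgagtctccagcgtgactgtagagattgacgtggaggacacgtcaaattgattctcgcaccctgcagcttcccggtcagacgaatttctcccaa
Krt5: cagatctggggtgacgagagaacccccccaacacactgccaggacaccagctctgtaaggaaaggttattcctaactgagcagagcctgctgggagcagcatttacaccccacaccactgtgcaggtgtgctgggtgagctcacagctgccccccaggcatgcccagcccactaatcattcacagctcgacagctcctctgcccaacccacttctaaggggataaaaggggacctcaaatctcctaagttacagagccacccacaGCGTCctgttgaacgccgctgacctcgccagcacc
Krt14: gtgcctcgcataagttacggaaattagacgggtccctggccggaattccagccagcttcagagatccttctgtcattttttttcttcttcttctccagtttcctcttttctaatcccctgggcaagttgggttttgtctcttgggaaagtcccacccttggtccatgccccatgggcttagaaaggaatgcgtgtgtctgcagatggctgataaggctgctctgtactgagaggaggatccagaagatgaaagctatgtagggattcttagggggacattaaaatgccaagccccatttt
Among other genes searched by name, the promoter of Cxcl12 held 1 match. Those of Dll4, Foxn1, Tbata, Krt8 and Krt18, all higher in cTEC, held 0. Those of Lgals7 and Krt10, higher in skinEC, also held 0. The motif is short and common. On either strand it stood in 40.3% of the 770 promoters of genes at least 4-fold higher in cTEC, in 33.3% of 699 of those lower, in 47.5% of 8951 of the remaining genes compared and in 27.4% of all 27018 promoters. These shares were not tested against each other, and a match is a description and no binding site. The AP-1 letters TGANTCA, on either strand, stood in 6.62% of promoters higher in cTEC, 8.44% of those lower, 4.41% of the remainder and 7.94% of all.

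Of the genes compared, 1062 (7.84%) were higher by 4-fold or more in cTEC and 981 (7.24%) at least 4-fold lower, together 15.1%. These shares are the background for every count of list members given here, but they were larger among abundant genes. Where the higher library was at 100 RPKM or more, 11.9% were higher and 13.3% lower. From 1 to 10 RPKM, 7.43% were higher and 4.81% lower. The share of the genes apart that were higher in cTEC was 52.0%, and it was 63.1% when each library was scaled to the same sum. The median log2 ratio over all genes compared was -0.06, and 63.0% of the genes were within 2-fold. On the 16-fold level the counts were 249 higher and 222 lower, and on the 64-fold level 61 and 57. The 2 sides were thus nearly balanced in number as deposited. Just inside the minimum level of 1 RPKM were Gng4 (0.149 and 1.00 RPKM) and Stmn2 (1.00 and 0.0846 RPKM), and just outside were Liph (0.390 and 0.998 RPKM) and Olfml3 (0.997 and 0.495 RPKM). Just inside and outside 4-fold higher were Casp1 and Bbs2, and for 4-fold lower Snora26 and Pfkp inside, Ramp1 and Thsd1 outside.

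**Figure D1:**
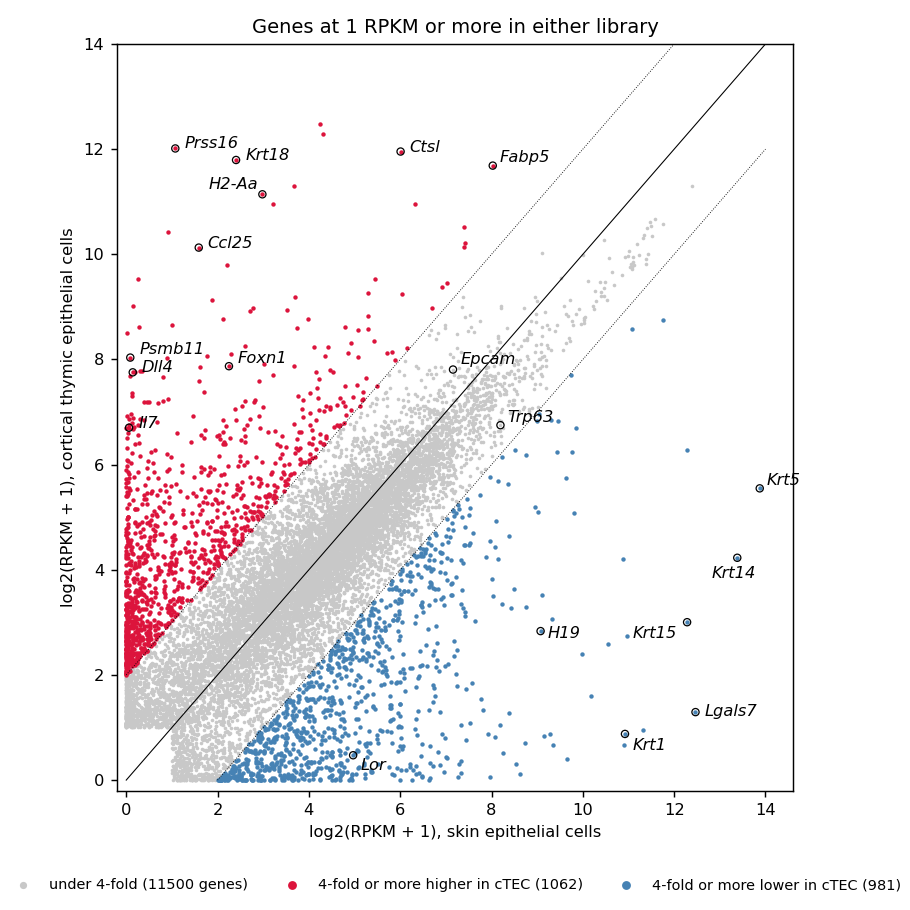
Each point is 1 of the 13543 genes compared, with log2(RPKM + 1) of the skinEC library on the horizontal axis and of the cTEC library on the vertical axis; the solid line marks equal levels and the dotted lines 4-fold. The 1062 genes higher in cTEC (red) lie along the left edge and upper left, the 981 lower genes (blue) along the bottom and right, and Epcam and Trp63 lie between the dotted lines.

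A few genes took a larger part of the skin library. The 10 most abundant entries took 10.01% of summed RPKM in skinEC and 7.54% in cTEC, and Krt5 and Krt14 alone made up 4.32% in skinEC. In cTEC the most abundant named genes were Cd74 (5669 and 18.1 RPKM), which encodes the invariant chain that guides MHC class II molecules, the protease gene Prss16, the cathepsin L gene Ctsl, the keratin gene Krt18 and Fabp5, a fatty acid binding protein gene (3295 and 260 RPKM). In skinEC they were Krt5, Krt14, Lgals7, which encodes galectin 7 (1.45 and 5661 RPKM), the elongation factor gene Eef1a1 (2528 and 5354 RPKM), Krt15 (7.02 and 4983 RPKM) and the lipoprotein gene Apoe (76.4 and 4976 RPKM). Entries at 1000 RPKM or more, small RNA entries among them, numbered 31 in cTEC and 62 in skinEC.

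The cortical identity list set cTEC apart in nearly all of its members. Of 18 genes, all measured, 15 were 4-fold or more higher and 0 lower, and the list median was a log2 ratio of 7.55 against -0.06 for all genes compared. Prss16 (Entrez 54373), a serine protease of thymic endosomes, was at 4132 and 1.11 RPKM, a log2 ratio of 10.94 and the largest toward cTEC under the naming rule. Ctsl, which cuts the invariant chain in cortical epithelium, was at 3967 and 63.4 RPKM. Tbata, a thymus and testis gene, was at 743 and 0.190 RPKM, and Ly75, an endocytic receptor, was at 220 and 0.228 RPKM. Cd83, which stabilises surface MHC class II, was at 218 and 0.267 RPKM. Foxn1 itself (Entrez 15218) was at 233 and 3.75 RPKM, a log2 ratio of 5.62, so its transcript was present in skinEC too. The other members stood outside this pattern. Ccrl1, an atypical chemokine receptor, was at 177 and 92.0 RPKM, the tendon factor Scx was at 3.59 and 10.3 RPKM, and Bmp4 was at 1.79 and 9.26 RPKM. For the same list, mTEC against skinEC, which shares the skinEC library, had a median of 3.59.

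Transcription factors of thymus formation were divided. Of 17 measured, 9 were higher by 4-fold or more in cTEC and 4 lower, with a median of 2.34. Pharyngeal factors lay on both sides. Pax1 (514 and 0.109 RPKM) and Pax9 (78.9 and 0.0139 RPKM) are paired-box factors of the pharyngeal pouches, and Six4 (14.4 and 0.0353 RPKM), Eya1 (33.5 and 0.740 RPKM) and Eya2 (138 and 26.5 RPKM) act together in pouch patterning. The level of Pax9 in skinEC was of the size of 1 read. Isl1 was at 44.7 and 0.673 RPKM. The lower genes were Gata3 (0.605 and 87.7 RPKM), Tbx1 (0.805 and 28.2 RPKM), Ripply3 (0.728 and 16.1 RPKM) and Foxi3 (12.5 RPKM in skinEC, listed at 0 in cTEC). Gata3 and Foxi3 also act in epidermis and its appendages. Trp63, which encodes p63, was high in both at 107 and 292 RPKM, a log2 ratio of -1.45.

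MHC class II genes differed steeply. Of 14 measured members, 9 were higher by 4-fold or more in cTEC and 0 lower, with a median of 5.64. For the same list, mTEC against skinEC had a median of 6.29. Ciita, the coactivator that switches class II genes on, was at 83.4 and 0.149 RPKM. The chains H2-Aa (2257 and 6.90 RPKM), H2-Ab1 (2522 and 11.9 RPKM) and H2-Eb1 (885 and 3.61 RPKM) and the peptide exchange genes H2-DMa (275 and 3.94 RPKM) and H2-DMb1 (120 and 1.74 RPKM) were higher too. The DNA-binding partners of CIITA were within 4-fold, with Rfx5 at 22.2 and 7.40 RPKM, Rfxank at 13.6 and 11.3 RPKM and Rfxap at 15.7 and 13.4 RPKM. The thiol reductase gene Ifi30 was also within 4-fold at 199 and 105 RPKM. MHC class I presentation differed by less. Of 14 genes, 7 were higher by 4-fold or more in cTEC and 0 lower, with a median of 2.07, against 2.60 for mTEC over skinEC. H2-K1 was at 610 and 38.2 RPKM, the light chain gene B2m at 703 and 129 RPKM, and the peptide transporter genes Tap1 and Tap2 at 137 and 21.2 RPKM and at 136 and 6.93 RPKM. H2-D1 (361 and 112 RPKM) was within 4-fold, and so was the class I coactivator gene Nlrc5 (2.26 and 2.32 RPKM). Class I heavy chains have close copies, so the split of reads among them is uncertain.

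The proteasome differed in its exchangeable catalytic subunits. Of 12 members, 3 were higher by 4-fold or more in cTEC and 0 lower, with a median of -0.21 (0.14 after scaling to equal sums). Besides Psmb11, the immunoproteasome subunits Psmb9 (435 and 3.33 RPKM) and Psmb10 (580 and 11.95 RPKM) were higher, while Psmb8 was at 24.0 and 7.16 RPKM. The constitutive subunits Psmb5 (97.5 and 120 RPKM), Psmb6 (185 and 232 RPKM) and Psmb7 (170 and 273 RPKM) were close in both. The activator gene Psme1 had the lowest ratio of the list at 38.6 and 148 RPKM. In cTEC the levels of Psmb11, Psmb9 and Psmb10 were above those of their constitutive counterparts Psmb5, Psmb6 and Psmb7, whereas Psmb8, which also replaces Psmb5, was below it. In skinEC these 4 replacing subunits were all below their counterparts.

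Lysosomal proteases and their inhibitors split by gene. Of 20 measured, 5 were higher by 4-fold or more in cTEC and 7 lower, with a median of -0.93. Prss16, Ctsl, Ctsa (280 and 55.7 RPKM), Ctso (15.2 and 1.30 RPKM) and the inhibitor gene Cstb, which encodes stefin B (1467 and 167 RPKM), were higher. The cathepsin genes Ctsb (39.6 and 174 RPKM), Ctsc (7.10 and 38.8 RPKM) and Ctsh (5.04 and 43.9 RPKM) were lower. The stefin genes Stfa3 and Stfa1, which also encode cytosolic cathepsin inhibitors, were lower still, at 0.943 and 2555 RPKM and at 0.0845 and 392 RPKM. Stfa1 and Stfa3 belong to a family of close copies and the Stfa3 model is short, so their reads are uncertain. Of 27 autophagy genes, 2 were higher, Lamp2 (506 and 103 RPKM) and Wipi1 (83.5 and 18.8 RPKM), and 1 lower, Map1lc3a (30.1 and 129 RPKM). Their median was -0.12, and 0.23 after scaling to equal sums.

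**Figure D2:**
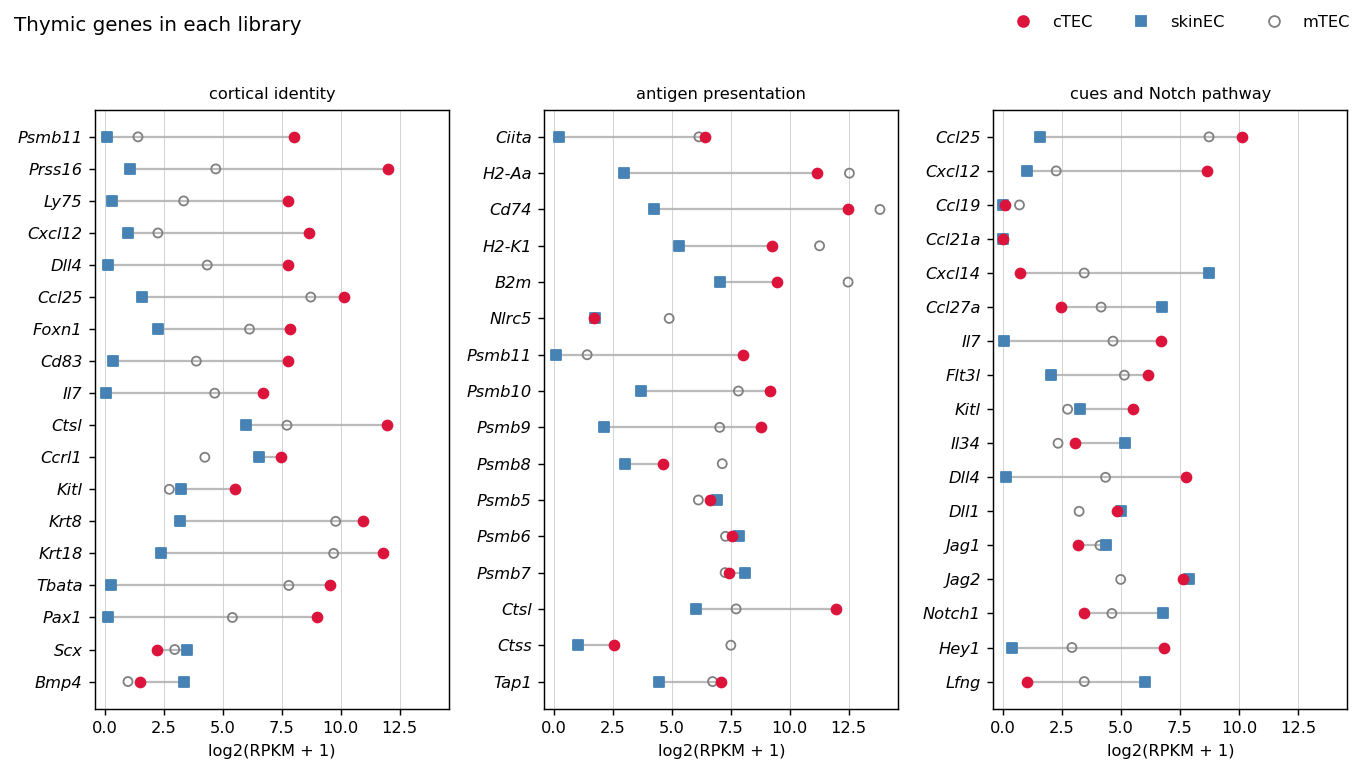
Levels as log2(RPKM + 1) of the cortical identity genes, genes of antigen presentation, and cues for thymocytes with Notch pathway genes, in cTEC (red circles), skinEC (blue squares) and, for orientation, mTEC (open circles), 1 library each. The red circles lie far right of the blue squares for Prss16, Psmb11, Ciita, Il7 and Dll4, close to them for Psmb5, Dll1 and Jag2, and to their left for Cxcl14, Notch1 and Lfng.

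Of the cues that thymocytes receive, several were abundant in cTEC alone of the pair, while skinEC held other members of the same families. Of 13 chemokine genes measured, 5 were higher by 4-fold or more in cTEC and 2 lower, with a median of 1.26. Ccl25 (1118 and 2.01 RPKM) and Cxcl12 (404 and 1.00 RPKM), which draw progenitors into the thymus and cortex, led the higher ones, followed by the interferon-induced Cxcl10 (215 and 16.9 RPKM). The lower ones were the skin chemokine genes Cxcl14 (0.639 and 426 RPKM) and Ccl27a (4.47 and 106 RPKM). Of 15 cytokine and growth factor genes, 6 were higher and 2 lower, with a median of 0.02. Il7 was at 103 and 0.0434 RPKM, the heparin-binding factor gene Mdk at 504 and 5.84 RPKM, Flt3l at 70.7 and 3.06 RPKM and Kitl, the ligand of KIT on early progenitors, at 44.4 and 8.497 RPKM. Il34, which maintains Langerhans cells in skin, was at 7.35 and 35.1 RPKM, and Tgfb2 was at 1.23 and 26.0 RPKM. Of 8 costimulatory and checkpoint ligand genes measured, 3 were higher and 0 lower, namely Cd83, Cd274, which encodes PD-L1 (76.9 and 0.556 RPKM), and Cd40 (20.6 and 0.0963 RPKM).

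The Notch pathway differed by member. Of 17 measured, 4 were higher by 4-fold or more in cTEC and 5 lower, with a median of -0.18 (0.17 after scaling to equal sums). Among ligands, Dll4 was at 215 and 0.104 RPKM, whereas Dll1 (27.2 and 30.9 RPKM), Jag1 (8.08 and 19.8 RPKM) and Jag2 (197 and 236 RPKM) were within 4-fold. Among receptors, Notch1 was at 9.74 and 108 RPKM and Notch3 at 2.42 and 18.0 RPKM, and Notch2 was close at 24.6 and 19.01 RPKM. The glycosyltransferase gene Lfng, whose product tunes receptors toward Delta ligands, was at 1.02 and 63.5 RPKM. The targets went both ways. Hey1 (114 and 0.317 RPKM) and Hey2 (4.05 and 0.0141 RPKM) were higher in cTEC, and so was Dtx4 (27.2 and 4.99 RPKM). Hes1 (24.8 and 108 RPKM) and Nrarp (4.76 and 30.4 RPKM) were lower.

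Wnt genes lay toward skin. Of 35 measured, 0 were higher by 4-fold or more in cTEC and 13 lower, with a median of -1.59. The epidermal ligand genes Wnt10a (0.234 and 73.7 RPKM), Wnt6 (0.572 and 66.0 RPKM), Wnt7b (1.73 and 63.2 RPKM), Wnt3 (0.482 and 32.1 RPKM), Wnt16 (0.0848 and 25.5 RPKM) and Wnt10b (0.420 and 26.8 RPKM) were among the lower ones. Wnt4 was the exception in level, abundant and equal at 152 and 147 RPKM. The stem cell receptor genes Lgr6 (0.0390 and 152 RPKM) and Lgr5 (0.165 and 8.36 RPKM) and the Wnt and BMP inhibitor gene Sostdc1 (0.424 and 306 RPKM) were lower as well. Among 25 BMP, TGF-beta and FGF pathway genes, 1 was higher, Fgf21 (6.75 and 0.227 RPKM), and 9 lower, with a median of -0.49. The BMP and activin antagonist gene Fst was at 0.764 and 268 RPKM, the receptor genes Fgfr3 and Fgfr1 at 0.576 and 63.2 RPKM and at 2.58 and 59.0 RPKM, and the BMP targets Id1, Id2 and Id3 at 11.6 and 57.8 RPKM, 2.67 and 15.6 RPKM and 15.1 and 101 RPKM. Of 21 TNF receptor and NF-kB genes, 5 were higher and 0 lower, with a median of 0.15. They were Cd40, Bcl3 (32.7 and 1.71 RPKM), the kinase gene Map3k14 of the non-canonical pathway (41.7 and 7.65 RPKM), Birc3 (35.8 and 6.72 RPKM) and the receptor gene Ltbr (131 and 29.5 RPKM).

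Interferon-stimulated genes were almost all higher in cTEC. Of 31 genes, 27 were higher by 4-fold or more in cTEC and 0 lower, all 31 had a positive ratio, and the median was 3.02. Isg20, an exonuclease gene, was at 260 and 0.852 RPKM, the transcription factor gene Irf8 at 107 and 0.190 RPKM, and Oasl2 at 193 and 2.01 RPKM. Isg15 was at 145 and 5.97 RPKM and Irf1 at 140 and 23.6 RPKM. The signal transducer gene Stat2 was at 33.1 and 5.75 RPKM and Irf9 at 68.1 and 12.96 RPKM. Those within 4-fold were the low genes Oas2 (2.10 and 0.116 RPKM), Oas3 (1.76 and 0.0949 RPKM) and Ifitm1 (1.82 and 0.156 RPKM) and the abundant Ifi27l1 (142 and 40.8 RPKM). In mTEC Irf8 was at 111 RPKM and Isg15 at 102 RPKM. The summed level of the list was 3490 and 321 RPKM, of which Ifitm3 held 1185 and 169 RPKM. The summed myeloid markers were 17.3 and 10.9 RPKM as given above, and the part of such cells in this list was not tested.

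**Figure D3:**
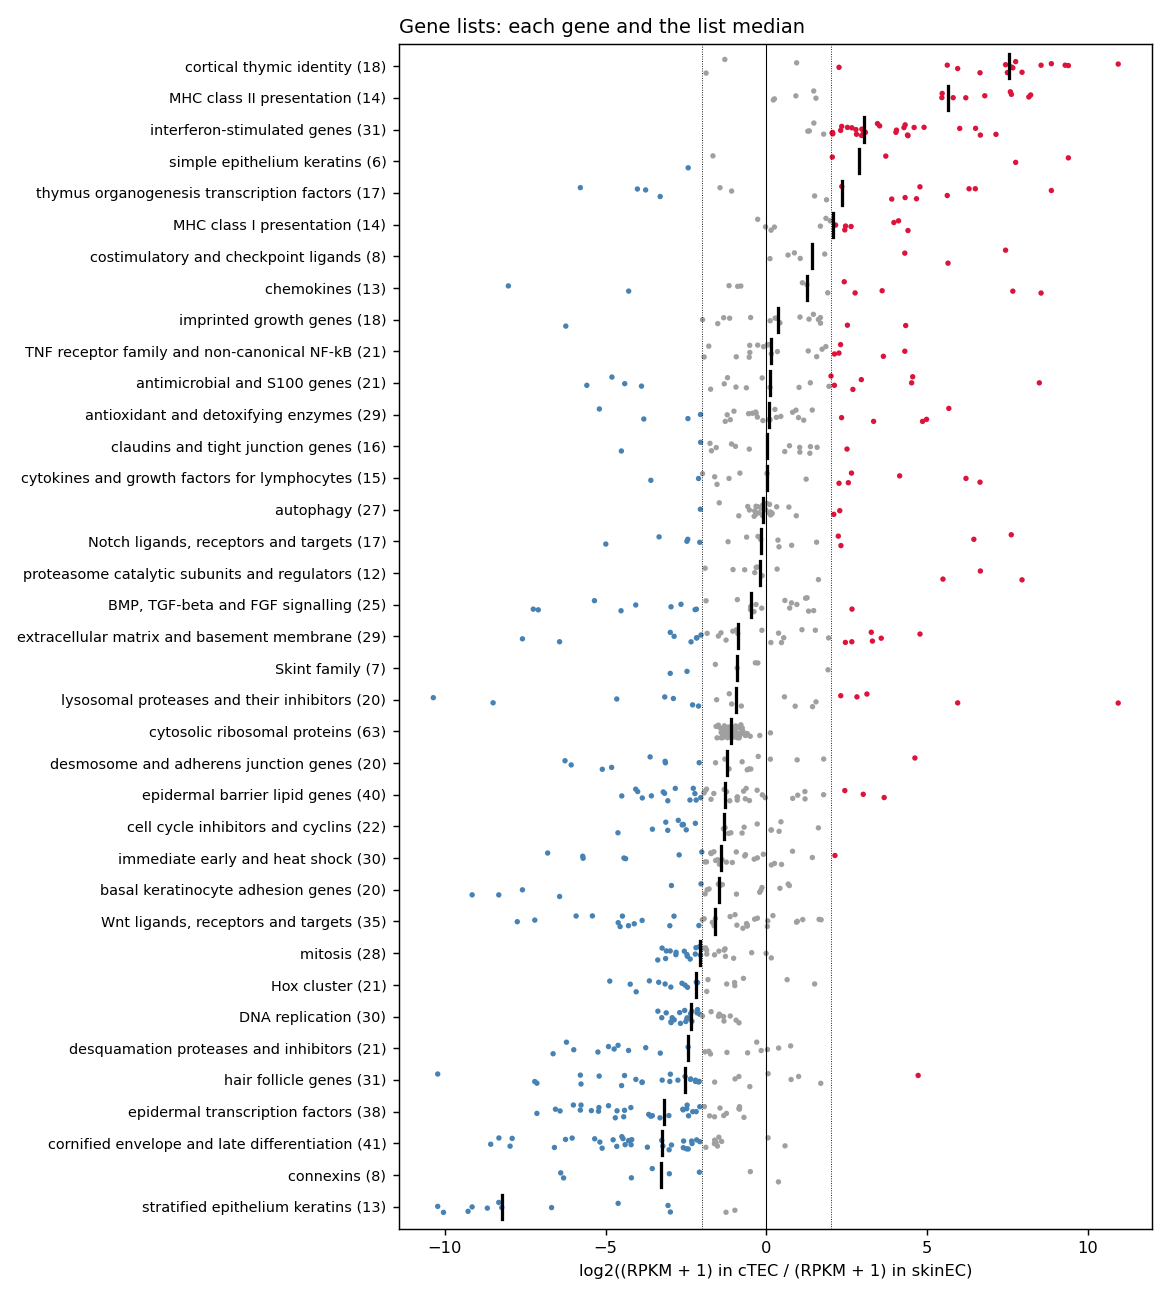
Each row is a gene list with the number of members compared in brackets, each point a member's log2 ratio of RPKM + 1 in cTEC over skinEC, and the black bar the list median; dotted lines mark 4-fold, with red points higher and blue points lower in cTEC. Cortical identity (median 7.55) and stratified keratins (median -8.23) are the ends, interferon-stimulated genes are all to the right of 0, and DNA replication genes all to its left.

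The epithelia used different keratins. Of 6 simple epithelium keratins, 4 were higher by 4-fold or more in cTEC and 1 lower. Krt18 was at 3549 and 4.30 RPKM, its partner Krt8 at 1990 and 8.25 RPKM, and Krt7 at 267 and 19.5 RPKM, whereas Krt20 was at 0.165 and 5.30 RPKM. Of 13 stratified epithelium keratins measured, 0 were higher and 11 lower, with a median of -8.23, and this list took 0.111% of summed RPKM in cTEC and 6.86% in skinEC. Krt5 was at 45.8 and 15010 RPKM and Krt14 at 17.7 and 10673 RPKM, so both remained measurable in cTEC. The suprabasal pair Krt1 and Krt10 was at 0.838 and 1940.0 RPKM and at 5.65 and 1998 RPKM. Krt17 kept the highest level of the list in cTEC, at 432 against 3436 RPKM. The skinEC library also held keratins known from the follicle opening and bulge, with Krt79 at 1900.4 and Krt15 at 4983 RPKM, against 0.590 and 7.02 RPKM in cTEC. In mTEC, Krt5 was at 475 and Krt14 at 229 RPKM.

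Anchoring genes were less one-sided than keratins. Of 20 basal adhesion genes, 0 were higher by 4-fold or more in cTEC and 6 lower, with a median of -1.47. Col17a1 (4.25 and 1011 RPKM) and Col7a1 (1.13 and 183 RPKM), the collagen genes of hemidesmosome and anchoring fibril, were the lowest after Krt5 and Krt14. The integrin genes Itga6 (73.4 and 201 RPKM) and Itgb4 (56.9 and 216 RPKM) and the laminin gene Lamb3 (70.9 and 257 RPKM) were within 4-fold, and Itgb1 was nearly equal at 94.9 and 107 RPKM. Matrix genes were divided. Of 29 measured, 6 were higher and 8 lower, with a median of -0.89. Nid2 (62.6 and 1.32 RPKM), Lama4 (47.7 and 3.10 RPKM), Lamb1 (176 and 17.0 RPKM), the fibronectin gene Fn1 (278 and 28.1 RPKM), Nid1 (18.5 and 2.11 RPKM) and the tenascin gene Tnc (664 and 120 RPKM) were higher in cTEC. Fibroblast markers moved in part with them, with 4 of 13 higher, among them Col3a1 (10.4 and 0.0129 RPKM) and Col6a1 (103 and 6.62 RPKM), and 1 lower, Postn (8.72 and 342 RPKM). The part of fibroblast RNA in the matrix result was not tested. Of 7 pericyte and smooth muscle markers measured, 4 were higher, led by Myh11 (102 and 0.111 RPKM) and Mylk (65.8 and 0.397 RPKM), and 1 was lower. Des was at 1.85 RPKM in cTEC.

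Junction genes differed by family. Of 20 desmosome and adherens junction genes, 1 was higher by 4-fold or more in cTEC, Dsc2 (147 and 5.03 RPKM), and 8 were lower, with a median of -1.23. The desmoglein gene Dsg3 was at 0.146 and 76.2 RPKM, Dsg1a at 0.631 and 55.2 RPKM and the plakophilin gene Pkp1 at 7.39 and 644 RPKM. Dsp, the desmoplakin gene, was at 421 and 502 RPKM, Dsg2 at 46.1 and 42.2 RPKM and the E-cadherin gene Cdh1 at 205 and 460 RPKM, so the shared desmosomal genes were abundant in both. Of 16 claudin and tight junction genes, 1 was higher, Cgn (19.5 and 2.62 RPKM), and 2 lower, Marveld3 and the barrier claudin gene Cldn1 (3.89 and 111 RPKM), with a median of 0.02. Of 8 connexin genes, 0 were higher and 6 lower, with a median of -3.29, including Gja1 (21.8 and 184 RPKM).

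Genes of cornification were lower in cTEC and, within skinEC, differed widely in level. Of 41 cornified envelope and late differentiation genes measured, 0 were higher by 4-fold or more in cTEC and 32 lower, with a median of -3.26. Krtdap (2.01 and 1150 RPKM), Dmkn (0.782 and 569 RPKM) and the surface antigen gene Ly6d (5.01 and 1510.0 RPKM) had the lowest ratios. Latest-stage genes were modest in skinEC itself, with the loricrin gene Lor at 0.387 and 30.3 RPKM and the late envelope genes Lce1g and Lce1f at 1.63 and 2.70 RPKM in skinEC and listed at 0 in cTEC. The filaggrin gene Flg was not analysed here. For comparison, mTEC held more Sprr1a (181 RPKM) than skinEC (108 RPKM), with 2.01 RPKM in cTEC. Of 21 desquamation genes, 0 were higher and 11 lower, with a median of -2.44. The kallikrein genes Klk7 (98.5 RPKM) and Klk10 (62.7 RPKM) of skinEC are listed at 0 in cTEC, and the serpin gene Serpinb5 was at 1.91 and 216 RPKM. Of 40 barrier lipid genes, 3 were higher and 14 lower, with a median of -1.28. Abca12, which loads lamellar granules, was at 0.0658 and 16.1 RPKM and Sult2b1 at 0.420 and 31.1 RPKM, while Fabp5 and the desaturase gene Fads2 (19.1 and 1.496 RPKM) were higher in cTEC.

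**Figure D4:**
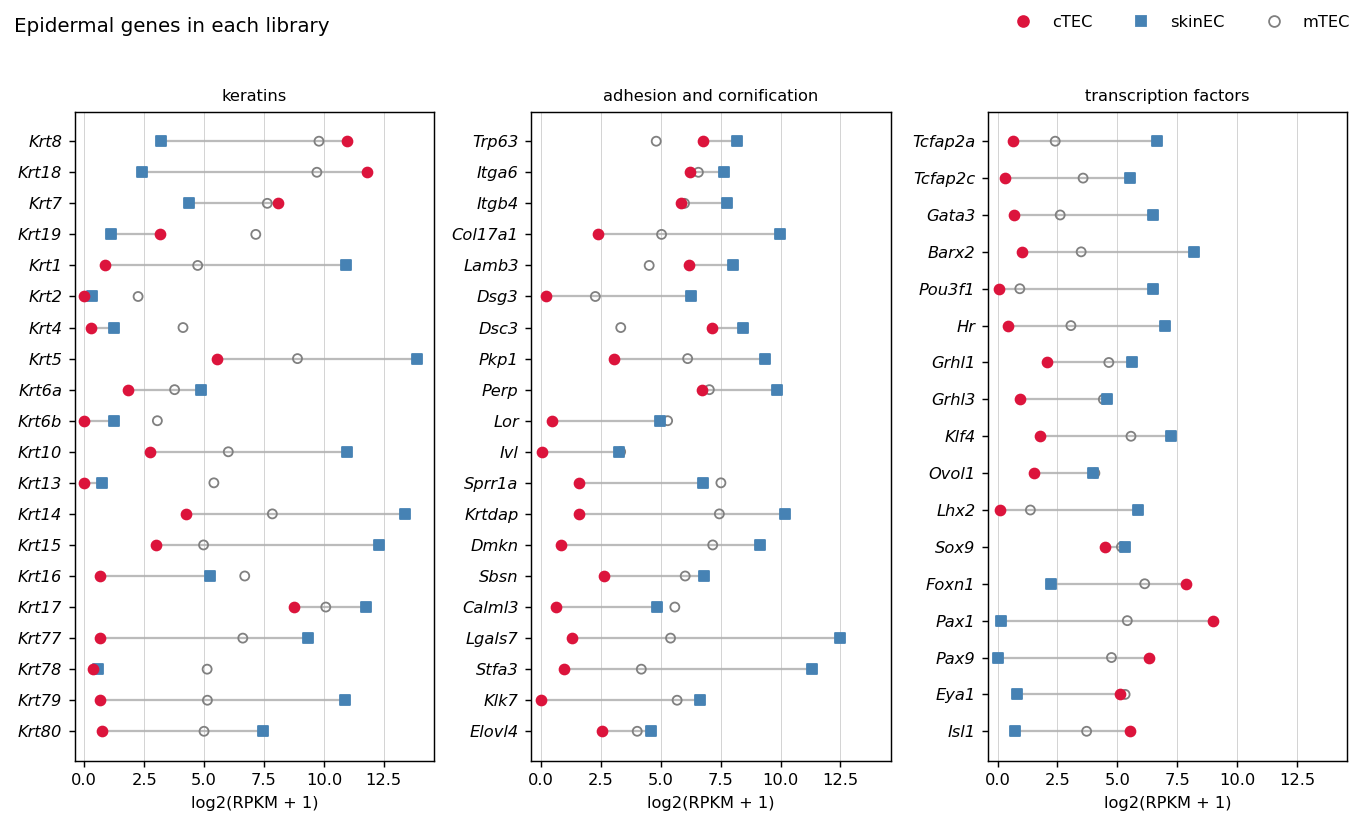
Levels as log2(RPKM + 1) of keratins, of adhesion and cornification genes, and of transcription factors in cTEC (red circles), skinEC (blue squares) and, for orientation, mTEC (open circles), 1 library each. Krt8 and Krt18 have cTEC far to the right, Krt5, Krt14, Lgals7 and Barx2 have skinEC far to the right, Trp63, Itga6 and Sox9 lie close together, and Krt13, Krt78 and Krt2 are low in both cTEC and skinEC.

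Epidermal transcription factors were all on the skin side. Of 38 measured, 0 were higher by 4-fold or more in cTEC and 28 lower, 0 had a positive ratio, and the median was -3.17. Barx2 was at 1.06 and 289 RPKM, the hairless gene Hr at 0.355 and 127 RPKM, the POU factor gene Pou3f1 at 0.0469 and 88.5 RPKM and Tcfap2a, which encodes AP-2 alpha, at 0.562 and 99.3 RPKM. Klf4 (2.46 and 150 RPKM) and Klf5 (2.50 and 104 RPKM), Krüppel-like factors of differentiating and dividing epithelium, and the follicle factor Lhx2 (0.0696 and 57.3 RPKM) were lower as well. Grhl2 (26.8 and 48.7 RPKM), Sox9 (21.1 and 39.0 RPKM) and Trp63 were within 4-fold and well above 1 RPKM in both. Hair follicle genes lay the same way, with 22 of 31 lower and 1 higher, and a median of -2.53. Gli1 (0.0241 and 36.7 RPKM) and Ptch1 (3.09 and 67.3 RPKM), targets of hedgehog signalling, were among the lower ones, and Cd34 (29.2 and 0.148 RPKM) was the higher one. Since Cd34 also marks endothelium, the endothelial sum of 29.5 and 0.876 RPKM moves with it, and its part was not tested.

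Hox genes, which record position along the body axis, were used differently. Of 39 in the clusters, 21 reached 1 RPKM in either library, 0 were higher by 4-fold or more in cTEC and 13 lower, with a median of -2.18. In cTEC 6 genes reached 1 RPKM, and all lay at the anterior end of clusters A and B. Among them were Hoxa2 (15.8 and 9.80 RPKM), Hoxa3 (15.5 and 4.83 RPKM), Hoxa4 (2.50 and 4.74 RPKM), Hoxb2 (3.85 and 21.0 RPKM) and Hoxb3 (4.60 and 12.2 RPKM). Hoxa3, needed to form the thymus from the third pharyngeal pouch, had the largest ratio, 1.497. In skinEC 21 reached 1 RPKM, with Hoxa7 (28.3 RPKM) and Hoxb7 (17.9 RPKM) at the middle of the clusters, both listed at 0 in cTEC. Hoxa5 was at 0.0188 and 15.9 RPKM, so in cluster A the levels of cTEC above 1 RPKM ended at paralogue 4. Hoxc13, known from hair and nail, was at 0.00726 and 4.83 RPKM.

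**Figure D5:**
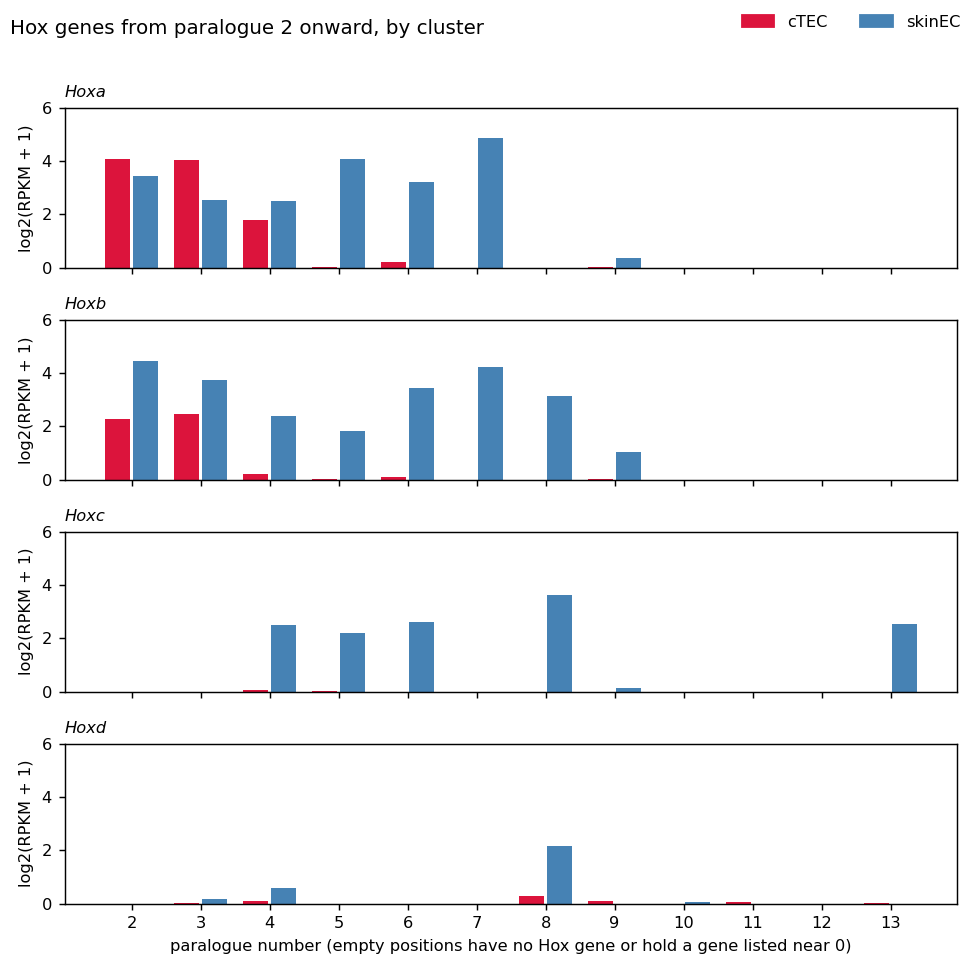
Bars give log2(RPKM + 1) of the Hox genes from paralogue 2 onward in cTEC (red) and skinEC (blue), 1 library each, by cluster and paralogue number. In cTEC the bars above 1 RPKM are those of Hoxa2 to Hoxa4, Hoxb2 and Hoxb3, and in skinEC they reach further along all 4 clusters.

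Genes of cell division were lower in cTEC. Of 30 DNA replication genes, 0 were higher by 4-fold or more and 20 lower, 0 had a positive ratio, and the median was -2.34. The helicase genes Mcm2 (12.02 and 101 RPKM), Mcm3 (12.4 and 102 RPKM) and Mcm5 (12.5 and 139 RPKM) and the licensing inhibitor gene Gmnn (5.68 and 62.8 RPKM) were among the lowest. Of 28 mitotic genes, 0 were higher and 15 lower, with a median of -2.07, such as Top2a (17.2 and 159 RPKM), Ube2c (12.2 and 137 RPKM) and Cdk1 (6.20 and 49.8 RPKM). Mki67 differed little, at 25.4 and 35.3 RPKM. After scaling to equal sums these counts were 15 and 11, with medians of -1.997 and -1.72. As deposited, mTEC against skinEC had medians of -2.40 for the replication and -2.53 for the mitotic list. Among 22 cyclins and inhibitors, 0 were higher and 10 lower, with a median of -1.31. Ccnd1 was at 3.47 and 109 RPKM and Ccnd2 at 48.3 and 329 RPKM, and the inhibitor gene Cdkn1a was at 11.4 and 108 RPKM. The mice differed in age, 7 days against newborn, and age and organ cannot be told apart here. Among 18 imprinted growth genes, H19 was at 6.13 and 538 RPKM, while Grb10 (37.6 and 0.921 RPKM) and Ndn (11.4 and 1.17 RPKM) were higher in cTEC.

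Ribosomal protein genes and immediate early and heat shock genes also had medians toward skinEC. Of 63 cytosolic ribosomal protein genes, 0 were 4-fold apart, but the median was -1.12, and the list took 4.85% of summed RPKM in cTEC and 8.65% in skinEC. Of 30 immediate early and heat shock genes, 1 was higher and 7 lower, with a median of -1.42. Egr2 (0.113 and 123 RPKM), Egr3 (0.0873 and 55.6 RPKM), Atf3 (2.61 and 189 RPKM) and Fosl2 (2.92 and 83.6 RPKM) were the lowest, while Fos (132 and 413 RPKM), Jun (176 and 580 RPKM) and Hspa8 (306 and 399 RPKM) were within 4-fold. Their part in the differences of the other lists was not tested.

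Further groups were mixed. Of 21 antimicrobial and S100 genes, 7 were higher by 4-fold or more in cTEC and 4 lower, with a median of 0.11. Bpifa1, a secreted airway gene, was at 363 RPKM in cTEC and at 0.0162 RPKM, the size of 1 read, in skinEC, Wfdc2 was at 93.9 and 3.06 RPKM, and S100a6 (10.4 and 548 RPKM) and the defensin gene Defb1 (0.637 and 44.8 RPKM) were lower. Of 29 antioxidant and detoxifying genes, 5 were higher and 4 lower, with a median of 0.07. Nqo1 (384 and 12.3 RPKM), Gsta4 (165 and 2.26 RPKM) and Srxn1 (59.6 and 0.922 RPKM) were among those higher, and Aldh3a1 (3.06 and 148 RPKM) was lower. The glutathione synthesis genes Gclc (12.3 and 30.1 RPKM) and Gclm (21.1 and 31.5 RPKM) and the thioredoxin reductase gene Txnrd1 (43.8 and 47.3 RPKM) were within 4-fold. Of 7 Skint genes measured, which encode butyrophilin-like proteins of thymus and skin, 0 were higher and 2 lower. Skint1, which selects the gamma-delta T cells that settle in epidermis, was at 1.85 and 21.7 RPKM, against 160 RPKM in mTEC.

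Outside the lists, the largest ratios toward cTEC under the naming rule included Crip3 (1379 and 0.891 RPKM, log2 ratio 9.51), a LIM domain gene known from thymus, and Ache, the acetylcholinesterase gene (391 and 0.213 RPKM, 8.34). Toward skinEC they included Lgals7 (-11.17) and Lmo1, a LIM-only transcription cofactor gene (0.231 and 370 RPKM, -8.24). Pltp, a phospholipid transfer protein gene chosen after its values were seen, was at 1976 and 78.9 RPKM, with 81.6 RPKM in mTEC. Small RNA entries made up 7.14% of summed RPKM in cTEC and 8.63% in skinEC and can repeat the reads of their host genes.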

How the data were processed

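Total RNA of 3 sorted mouse populations was made into libraries with an Illumina TruSeq kit, per the labels' protocols. The authors deposited RPKM values for each gene, per the file headers. CASAVA 1.8.2 and mm9 are named in the submitters' processing notes, with no role. For the aligner, the annotation and strandedness, nothing is given in the sources used here. Values of antisense, overlapping or near-identical genes are therefore uncertain. Gene symbols are printed as deposited. The sheet had 22663 rows, and where a symbol had several rows (47 symbols) that of the largest sum was used. Date strings stood in place of 11 symbols, which are not named.

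Mapped reads were recovered as the number at which RPKM values become a ratio of whole reads and whole length. The search was tested on simulated data, for which the exact lengths were supplied. Reads given are the smallest that fit, so a gene may hold a multiple of them. Reads are not independent molecules, so no counting interval is given. A gene listed at 0 gets no ratio in the text. Ratios were log2((RPKM + 1) / (RPKM + 1)) over genes at 1 RPKM or more in either library. With 1 library a side there is no spread and no test, and sizes alone are reported. Gene lists were 51, with 1053 distinct symbols in the table and 865 compared. The genes and lists were chosen with earlier results of these data known. Named genes are the 12 of largest ratio per direction among genes whose higher value was at least 10 RPKM (without provisional models, small RNAs and sorting genes), the sorting and defining genes, the genes at the thresholds, the 10 most abundant of each library and, per list, the 4 largest in each direction, the 2 most abundant per library and the member nearest the median. Some genes are counted in their lists but not reported here by name. Other named members were chosen after their values were seen. Alternatives were pseudocounts of 0.1 and 0.5 RPKM, other filters, scalings and thresholds, and the mean of repeated rows. Promoter sequences came from RefSeq on GRCm38.p6, a later build than the files'. Python 3.11.15 with numpy 2.4.6 and pandas 2.3.3 was used.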

Additional observations from a re-analysis of the deposited data

How the results depend on the processing

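The count of genes at least 4-fold higher in cTEC (1062) was 1710 with a pseudocount of 0.1 RPKM and 1642 on the TPM scale. It was 1655 when both libraries were scaled by sums that left out the 50 most abundant genes of each. With a 2-fold threshold it was 2596, and with an 8-fold threshold 507. The count lower (981) was 2418 and 447 under these thresholds, and stayed within 1.5 times under the other alternatives. With the pseudocount and the minimum level held and the libraries only scaled against each other, an alternative chosen after seeing the data, the TPM scale gave 1313 higher and 775 lower. That scaling moved the median of all genes by 0.34. It turned the direction of 0 of the 391 list members that were 4-fold apart, which a shift of this size could not do. Of these 391, 34 came under 4-fold. Restricting to genes with 50 or more reads in the higher library, also chosen after seeing the data, gave 1047 and 966.

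Of 548 recomputed list medians, 9 changed sign after starting at least 1.5-fold from equal, and these belonged to marker lists for other cells. Another 16, of the proteasome, autophagy, Notch, antioxidant, antimicrobial and claudin lists, changed sign after starting within 1.5-fold of equal. Without a filter, the melanocyte median became -0.0063, the Merkel cell median -0.23 and the skeletal muscle median -0.032. With a filter at 5 RPKM the T-cell median became -1.93 and the tuft cell median -3.03. On the TPM scale the Merkel and skeletal muscle medians became -0.68 and -0.56, and without the 50 most abundant genes -0.83 and -0.69, where more low genes entered the lists. None of 232 recomputed ratios of 29 named genes changed direction. Most of these genes were picked for the largest ratios, which the alternatives could hardly turn. The result therefore says little about smaller differences. No paired analysis was possible because each population has 1 library.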
